A study of Mus musculus with 18 samples.

Results

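The genes described here move fatty acids from lipoproteins in the blood into the adipocyte and bind them there. They are the 10 genes Lpl, Gpihbp1, Angptl4, Cd36, Slc27a1, Slc27a2, Slc27a4, Fabp3, Fabp4 and Fabp5, which were picked by symbol from a table of 54347 gene rows. All 10 of 10 were found, and all 10 passed the low-count filter that left 18728 genes for testing.

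Polyadenylated RNA was sequenced from 3 fat depots of the same 6 mice, the brown fat between the shoulder blades (iBAT), the white fat of the groin (iWAT) and the white fat along the epididymis (eWAT). All mice were on the C57BL/6N background and were 12 weeks of age. In 3 of them (knockout, ko; ∆Gm15551) exon 1 of the long noncoding RNA gene Gm15551 was deleted with CRISPR/Cas9 on both alleles, and 3 were wild type (wt). This gave 18 libraries in 6 groups of 3, iBAT wt, iBAT ko, iWAT wt, iWAT ko, eWAT wt and eWAT ko, in which a mouse contributed 1 library per tissue. Whole tissue was used, so each library also holds the vessels, immune cells and neighbouring structures that were dissected with the fat.

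Lipoprotein lipase, the product of Lpl, is made by adipocytes and splits the triglycerides of circulating lipoproteins at the capillary wall. GPIHBP1, an anchor on the capillary endothelium, carries the lipase to that surface, and ANGPTL4 inactivates it. The released fatty acids enter the cell with the help of the scavenger receptor CD36 and of the fatty acid transport proteins, encoded by Slc27a genes, which also join fatty acids to coenzyme A. Inside the cell, the small fatty acid binding proteins, encoded by Fabp genes, hold them in solution. White adipocytes store the fatty acids, while brown adipocytes also burn them to produce heat.

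Total estimated counts ranged from 14997901 to 34389586 per library, and 3 counts, the limit that a count of 0 allows, corresponded to 0.0728 to 0.235 CPM. CPM, the usual counts-per-total unit of RNA sequencing, relates a count to its library total after scaling by the trimmed mean of M values (TMM). These limits cover counting error only. Gm15551 itself held 40 to 316 counts in the wt libraries and 0 to 4 in the ko libraries. The summed level of 8 brown adipocyte markers was at least 7340 CPM in every iBAT library and at most 325.4 CPM in every white library, in the direction of the tissue labels. Genes of other structures stood out in 4 libraries. In iWAT ko replicate 1, 10 muscle markers reached a sum of 4639 CPM, against at most 25.0 CPM elsewhere. The sum of 7 lymph node markers was 908.8 CPM for iWAT wt replicate 3 and 395.9 CPM for iWAT ko replicate 2, against at most 16.1 CPM in the other 16 libraries. The sum of 6 epididymis markers was 4819 CPM for eWAT ko replicate 3, 16.6 CPM for eWAT wt replicate 1 and at most 1.98 CPM in the others. In eWAT ko replicate 3, Crisp1, Spink8 and Adam7 held 60336, 30581 and 6418 counts, while Lcn9, Rnase10 and Cst11 held 0 to 1. The tissue comparisons of the 10 genes that these 4 libraries change are given with and without them.

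**Figure D1:**
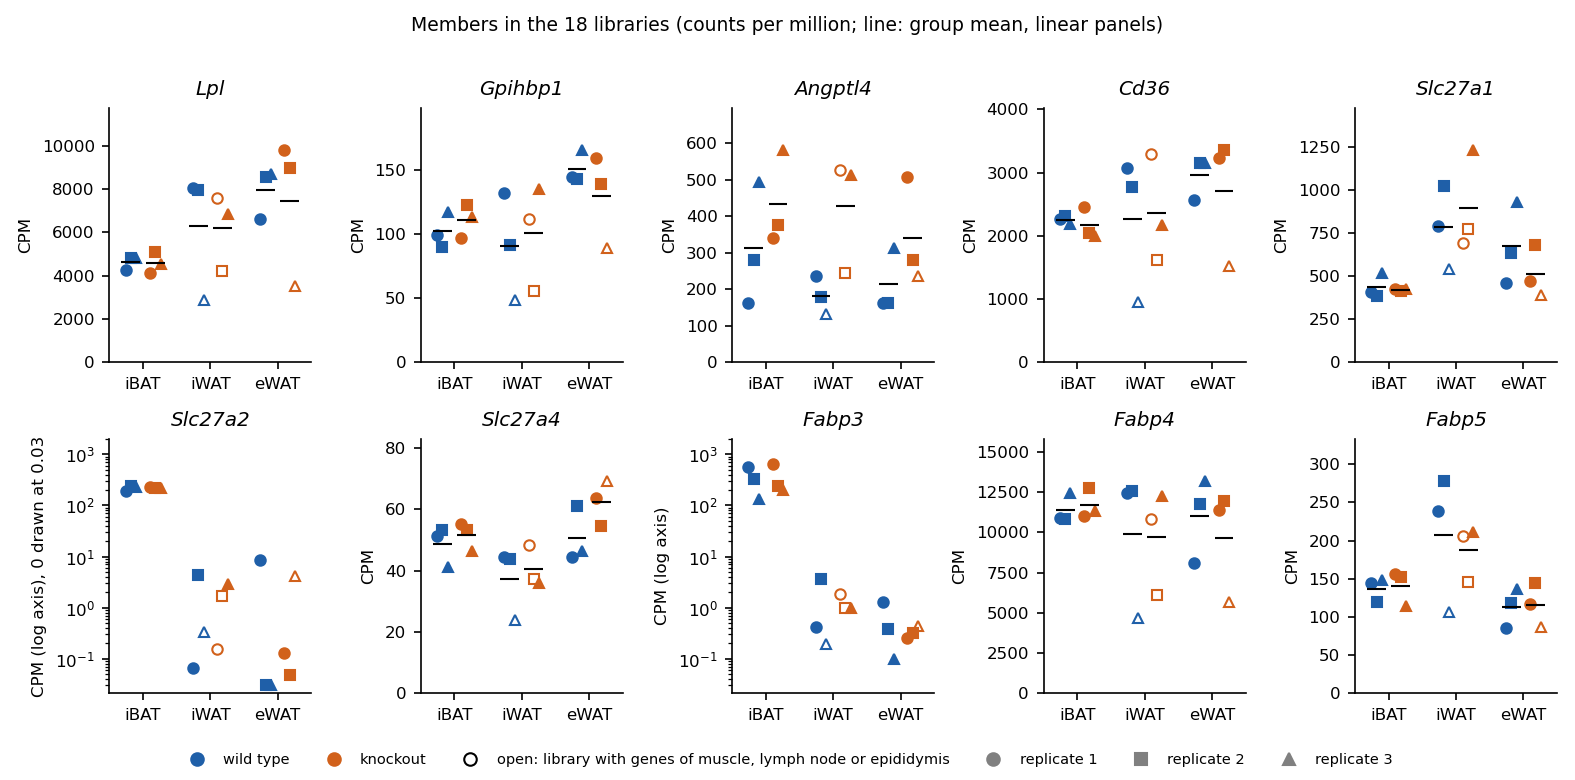
CPM of the 10 genes in each of the 18 libraries, by tissue on the x axis, wild type in blue and knockout in orange, with replicate numbers as symbols and group means as lines where the y axis is linear. Slc27a2 and Fabp3 are drawn on log axes, where all 6 iBAT libraries lie above all 12 white libraries, and the open symbols mark the 4 libraries with genes of muscle, lymph node or epididymis.

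Levels of different genes can be set side by side only per length. Per kilobase of the principal protein-coding transcript, Fabp4 was the highest in every tissue, with 11551 ± 3167 CPM per kilobase in eWAT, 10959 ± 3909 in iWAT and 12883 ± 949 in iBAT (SD, n = 6). Lpl came next and Cd36 after it in each tissue, with 1120 ± 93.0 and 650.5 ± 50.1 CPM per kilobase in iBAT. In iBAT, Fabp3 followed Cd36 at 427.2 ± 245.4 CPM per kilobase, and its range of 164.1 to 770.9 overlapped those of Cd36 above it and Slc27a1 below it. After it, Slc27a1, Fabp5, Gpihbp1, Angptl4 and Slc27a2 followed in this order between 153.1 and 75.6 CPM per kilobase, and each of these overlapped its neighbour. Slc27a4 was last in iBAT at 12.4 ± 1.31 CPM per kilobase, below the range of Slc27a2. In both white tissues the last places went to Slc27a2 and Fabp3, which overlapped each other, with means of 0.545 to 1.61 CPM per kilobase. The length used matters for this order. Over the union of all annotated exons, which for Fabp4 is a single block of 4489 bp because an annotated transcript keeps the introns, against 896 bp for its principal transcript, Cd36 and not Lpl was second in all 3 tissues, and Fabp4 remained first.

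Of these 10 genes, 5 differed between iBAT and iWAT at an edgeR adjusted p under 0.05, where 54.3% of all tested genes did. Slc27a2, Slc27a4 and Fabp3 were higher in iBAT, against 24.0% of all genes in that direction, and Slc27a1 and Fabp5 were lower, against 30.3%. Between iBAT and eWAT 3 of 10 differed, against 54.6% of all genes, with Slc27a2 and Fabp3 higher in iBAT (24.4% of all genes) and Lpl lower (30.2%). Between iWAT and eWAT 2 of 10 differed, against 10.2% of all genes, with Fabp5 higher in iWAT (5.70% of all genes) and Slc27a4 lower (4.50%). The median log2 fold change of the 10 genes was 0.19 for iBAT against iWAT, with -0.14 over all genes, 0.00 against eWAT, with -0.17 over all genes, and -0.18 for iWAT against eWAT, with 0.01 over all genes. In both comparisons with iBAT the share of the 10 genes was no larger than that of all genes, and nothing is read from 2 of 10 in the third. The differences of Slc27a2 and Fabp3 were far larger than those of the other 8, as the plot of fold changes shows. In whole tissue, fewer cells of a type and less RNA per cell cannot be told apart.

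**Figure D2:**
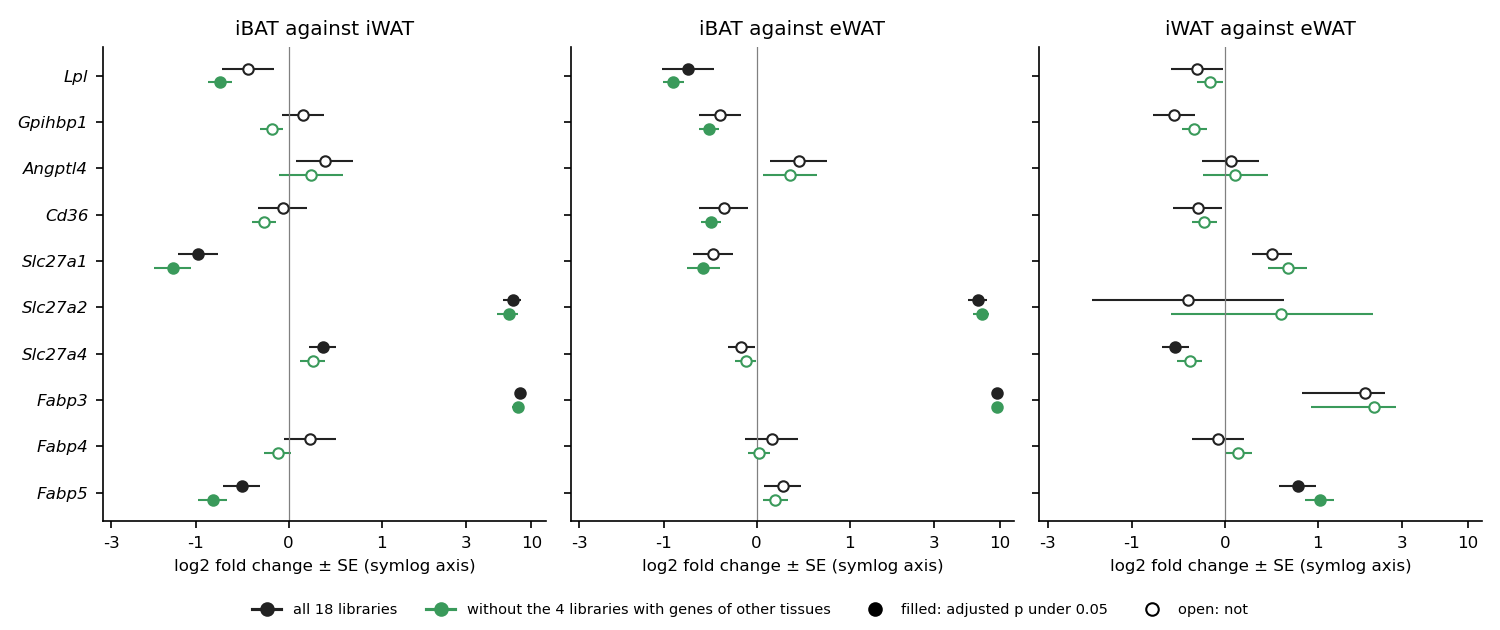
Log2 fold change with its SE for the 10 genes in the 3 tissue comparisons, from all 18 libraries in black and without the 4 libraries with genes of other tissues in green, on an axis that is linear between -1.5 and 1.5 and logarithmic beyond. Filled points passed an adjusted p of 0.05, and Slc27a2 and Fabp3 lie far to the right in both comparisons with iBAT.

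Slc27a2, which encodes fatty acid transport protein 2, was abundant in iBAT and low in the white libraries, in part of them near the detection limit. Slc27a2 (ENSMUSG00000027359.16, chromosome 2 from 126552407 to 126588243, plus strand, GRCm38) held 193.4 CPM in the lowest, 223.5 in the median and 237.2 in the highest iBAT library. In iWAT the lowest, median and highest library held 0.0649, 1.02 and 4.42 CPM. In eWAT these values were 0, 0.0886 and 8.71 CPM. No white library came near the iBAT libraries. The mean in iBAT was 138.7 times that in iWAT (log2 fold change 7.12 ± 1.16 SE, edgeR adjusted p = 7.61e-05) and 100.7 times that in eWAT (6.73 ± 1.14, adjusted p = 9.76e-05). These ratios of means rest on few white libraries: the first was 90.0 without the 4 libraries and 215.4 without iWAT wt replicate 2, and the second was 248.7 without eWAT wt replicate 1. Its level in eWAT came from 2 libraries, wt replicate 1 with 198 counts and ko replicate 3 with 86, the same 2 in which the epididymis markers were highest. The part of these markers in the Slc27a2 count was not tested. The other 4 eWAT libraries held 0 to 3 counts. Between the white tissues the difference was -0.40 ± 1.03 (edgeR adjusted p = 0.852), and its sign turned in 5 of 14 alternatives. Within iWAT, Slc27a2 was highest in wt replicate 2, at 4.42 CPM, and next in ko replicate 3, at 2.86 CPM, the same libraries that were highest in brown adipocyte markers, with sums of 325.4 and 296.1 CPM. The orders were not the same throughout, since wt replicate 1, with a marker sum of 141.0 CPM, held the lowest Slc27a2 level.

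Fabp3, which encodes the binding protein best known from heart and skeletal muscle, showed the other large difference. Fabp3 (ENSMUSG00000028773.8, chromosome 4 from 130308595 to 130315463, plus strand) held 135.1 CPM in the lowest, 289.5 in the median and 634.4 in the highest iBAT library. It held 0.0988, 0.352 and 1.28 CPM in eWAT, and 0.198, 0.987 and 3.56 CPM in iWAT, again with no overlap between brown and white. The mean in iBAT was 264.6 times that in iWAT (log2 fold change 8.05 ± 0.68, edgeR adjusted p = 6.46e-08) and 758.8 times that in eWAT (9.57 ± 0.75, adjusted p = 1.73e-08). The ratios were 398.5 without iWAT wt replicate 2 and 1168 without eWAT wt replicate 1. Between the white tissues Fabp3 differed by 1.52 ± 0.69 (adjusted p = 0.175). The log2 fold changes without the 4 libraries were 7.79 for iBAT against iWAT, 9.59 against eWAT and 1.80 between the white tissues, with the same calls. The library with muscle genes, iWAT ko replicate 1, held 1.82 CPM of Fabp3, and iWAT wt replicate 2, in which the muscle markers summed to 4.04 CPM, held 3.56 CPM. The part of muscle in these values was not tested. Of the 10 genes, Fabp3 also varied most within iBAT. Replicate 1 held 558.5 CPM in wt and 634.4 in ko, replicate 2 held 336.1 and 242.9, and replicate 3 held 135.1 and 202.7. The summed brown adipocyte markers were 11755 CPM in wt and 12831 in ko for replicate 1, 9644 and 11009 CPM for replicate 2, and 7841 and 7340 CPM for replicate 3. Both were highest in replicate 1 and lowest in replicate 3, while wt and ko stood in opposite order for Fabp3 and the markers in replicates 2 and 3, and the part of the markers was not tested. The animal identifiers of a wt and a ko mouse with the same number lie close together, but the labels do not say what such a pair shares.

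Stretches from RefSeq starts of these genes are shown because Fabp3 and Slc27a2 share the brown fat pattern, next to Cd36, which does not. They were taken from the 250 bases before the RefSeq start (GRCm38.p6), and AGGTCA or its reverse complement TGACCT, a core sequence bound by many nuclear receptors, is in capitals. The Fabp3 stretch is the part before the first exon of GENCODE (chr4:130308488-130308594, plus strand), and those of Slc27a2 (chr2:126552792-126552821, plus strand) and Cd36 (chr5:17836107-17836136, minus strand) are the 30 bases around a match. The whole RefSeq window of Slc27a2, its match included, lies inside exons of that gene in GENCODE, which starts it further upstream. The window of Cd36 lies inside that gene but in none of its exons, since GENCODE starts Cd36 at 17888801 on the minus strand.
Fabp3: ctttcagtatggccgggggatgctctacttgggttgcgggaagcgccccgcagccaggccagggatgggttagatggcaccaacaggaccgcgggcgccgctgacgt
Slc27a2: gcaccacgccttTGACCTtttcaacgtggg
Cd36: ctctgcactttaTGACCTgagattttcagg
The Fabp3 window held no match on either strand, while Slc27a2 and Cd36 held 1 each, all as TGACCT. Among 32851 promoter windows of the same length, 14.0% held at least 1. TATAAA, searched on both strands, was in none of the windows of Slc27a1, Slc27a2, Slc27a4, Cd36 and Fabp3, and in 12.4% of all windows. Lpl, Gpihbp1, Angptl4, Fabp4 and Fabp5 were not in the table used. The guanine and cytosine content of the 250 bases was 64.8% for Fabp3, 64% for Slc27a2 and 43.2% for Cd36, with a median of 52.4% over all windows.

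The lipase and its 2 partners differed less. Lpl (ENSMUSG00000015568.16, chromosome 8 from 68880491 to 68907448, plus strand) held 4112 CPM in the lowest, 4671 in the median and 5114 in the highest iBAT library. It held 3542, 8635 and 9789 CPM in eWAT, and 2857, 7217 and 8063 CPM in iWAT. The iBAT libraries lay close together, whereas in the white tissues 3 libraries lay within or below the iBAT range and the other 9 above it. These 3 were iWAT wt replicate 3 with 2857 CPM, iWAT ko replicate 2 with 4232 CPM and eWAT ko replicate 3 with 3542 CPM, which are the libraries with lymph node or epididymis genes. With all libraries, Lpl was lower in iBAT than in eWAT by a log2 fold change of -0.74 ± 0.28 (edgeR adjusted p = 0.0337), and the difference from iWAT was -0.44 ± 0.28 (adjusted p = 0.194). Without the 4 libraries, Lpl was lower in iBAT in both comparisons, by -0.74 ± 0.13 against iWAT (adjusted p = 3.63e-04) and by -0.89 ± 0.11 against eWAT (adjusted p = 1.04e-05). When the mouse was added to the model, the eWAT comparison gave -0.71 (adjusted p = 0.0574). The call against eWAT was also lost without wt replicate 1, wt replicate 2, ko replicate 1 or ko replicate 2, with adjusted p-values of 0.0779 to 0.135, and in the wt libraries alone, at -0.78 (adjusted p = 0.226).

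Gpihbp1 (ENSMUSG00000022579.10, chromosome 15 from 75596628 to 75599481, plus strand) held 90.1, 106.3 and 122.6 CPM in the lowest, median and highest iBAT library. It held 89.4, 143.5 and 165.2 CPM in eWAT, and 48.8, 101.9 and 134.7 CPM in iWAT, and the lowest values were again those of iWAT wt replicate 3, iWAT ko replicate 2 and eWAT ko replicate 3. No tissue comparison of Gpihbp1 passed the test with all libraries. It was lower in iBAT than in eWAT once the 4 libraries were left out, by -0.51 ± 0.11 (edgeR adjusted p = 0.00109), while the difference from iWAT was -0.18 ± 0.13 (adjusted p = 0.262). The sum of 8 endothelial markers, which ran from 1038 to 1276 CPM in iBAT, was also lowest in these 3 libraries, at 706.5, 857.6 and 663.8 CPM, and its part in the Gpihbp1 levels was not tested.

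Angptl4 (ENSMUSG00000002289.16, chromosome 17 from 33773750 to 33781830, minus strand) held 162.6, 358.5 and 580.7 CPM in the lowest, median and highest iBAT library, 163.0, 258.2 and 508.5 CPM in eWAT, and 131.2, 239.7 and 525.8 CPM in iWAT. The 3 tissues overlapped almost fully, and the spread within each was several times the differences between them. The log2 fold changes were 0.39 ± 0.31 for iBAT against iWAT, 0.45 ± 0.30 against eWAT and 0.06 ± 0.31 for iWAT against eWAT, none past the test (edgeR adjusted p = 0.297, 0.220 and 0.925). They were 0.24, 0.36 and 0.11 without the 4 libraries, and again none passed.

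Cd36, the receptor for long-chain fatty acids on adipocytes and capillary cells, was low in the same libraries as the lipase. Cd36 (ENSMUSG00000002944.15, chromosome 5 from 17781690 to 17888801, minus strand) held 2006, 2223 and 2458 CPM in the lowest, median and highest iBAT library, 1519, 3156 and 3353 CPM in eWAT, and 951.0, 2466 and 3295 CPM in iWAT. The lowest white values were those of the same 3 libraries. With all libraries no comparison passed the test. Cd36 was lower in iBAT than in eWAT without the 4 libraries, by -0.49 ± 0.11 (edgeR adjusted p = 0.00152), and the difference from iWAT was -0.27 ± 0.13 (adjusted p = 0.106).

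The 7 common adipocyte markers Adipoq, Plin1, Cidec, Lipe, Pnpla2, Adrb3 and Pparg were low in these 3 libraries as well. They summed to 4365 CPM in iWAT wt replicate 3, 7211 in iWAT ko replicate 2 and 5841 in eWAT ko replicate 3, against 8524 to 13635 CPM in the other 9 white libraries and 10312 to 11001 CPM in iBAT. The plot of 6 genes beside the marker sum shows that Lpl, Gpihbp1, Cd36 and Fabp4 had their lowest white levels there. Slc27a1 did not share this in both iWAT libraries. Its 770.1 CPM in iWAT ko replicate 2 lay near the iWAT median. Its 540.9 CPM in iWAT wt replicate 3 was the lowest in iWAT but not among the lowest of all white libraries. The part of the adipocyte markers in these levels was not tested.

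**Figure D3:**
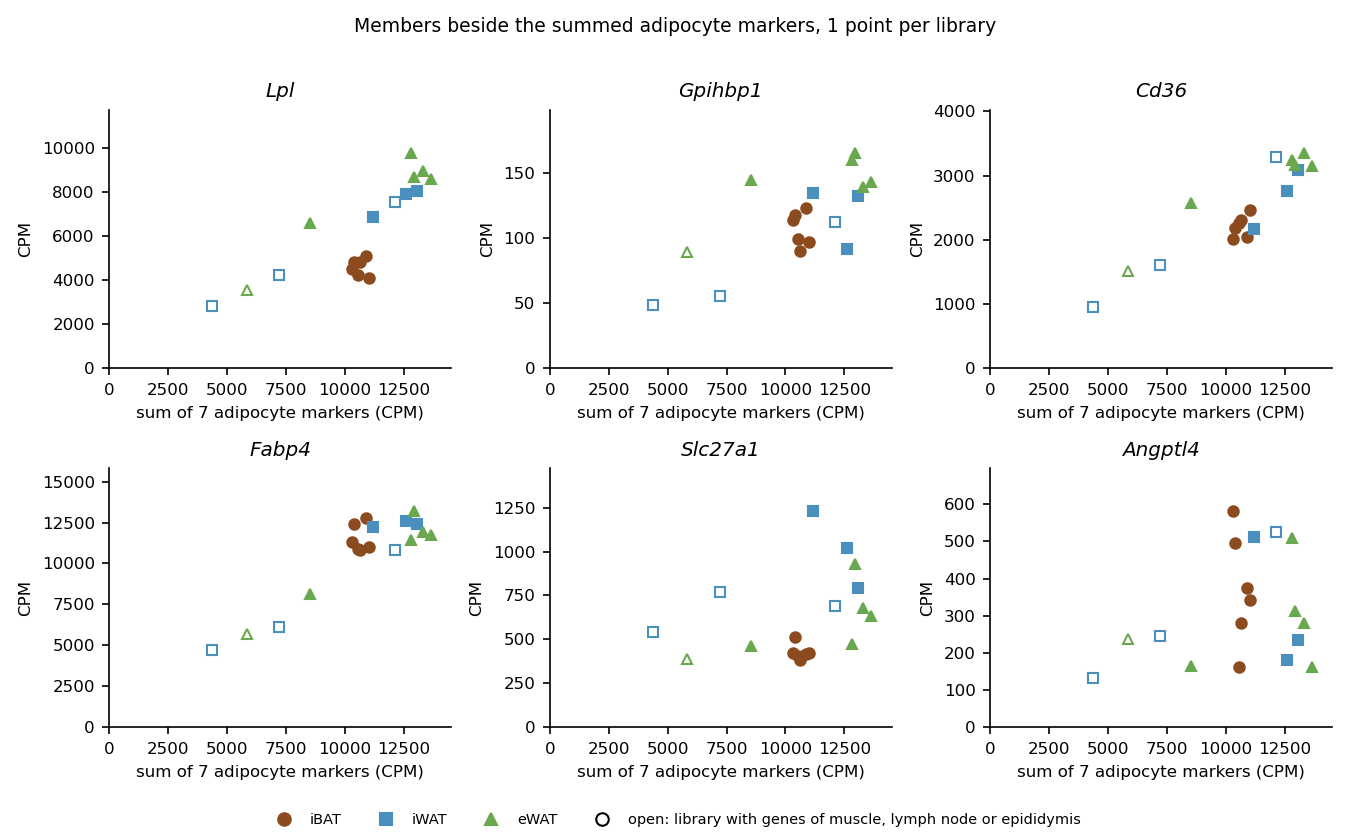
CPM of 6 of the genes on the y axis beside the summed CPM of 7 common adipocyte markers on the x axis, with 1 point per library, circles for iBAT, squares for iWAT and triangles for eWAT. The 3 leftmost open points are the white libraries with lymph node or epididymis genes, between 4365 and 7211 CPM of markers, and they are low in Lpl, Gpihbp1, Cd36 and Fabp4.

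Slc27a1, which encodes the insulin-responsive fatty acid transport protein 1, showed the opposite pattern to Slc27a2. Slc27a1 (ENSMUSG00000031808.7, chromosome 8 from 71568882 to 71587302, plus strand) held 383.1, 418.5 and 515.7 CPM in the lowest, median and highest iBAT library and 540.9, 780.2 and 1228 CPM in iWAT, with no overlap. In eWAT it held 390.0, 553.2 and 927.1 CPM. It was lower in iBAT than in iWAT by -0.98 ± 0.21 (edgeR adjusted p = 0.00108), and the difference from eWAT was -0.47 ± 0.21 (adjusted p = 0.0730). Without the 4 libraries both comparisons passed, at -1.25 ± 0.20 (adjusted p = 1.53e-04) and -0.57 ± 0.18 (adjusted p = 0.0125). In the wt libraries alone the iWAT difference was -0.85 (adjusted p = 0.0646).

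Slc27a4 encodes fatty acid transport protein 4, which is found in many tissues. Slc27a4 (ENSMUSG00000059316.2, chromosome 2 from 29802634 to 29817522, plus strand) held 41.2, 52.4 and 55.4 CPM in the lowest, median and highest iBAT library, 44.5, 57.9 and 69.1 CPM in eWAT, and 24.0, 40.5 and 48.3 CPM in iWAT. Neighbouring tissues overlapped, and the differences were small. Slc27a4 was lower in iWAT than in iBAT, with a log2 fold change of 0.37 ± 0.14 for iBAT against iWAT (edgeR adjusted p = 0.0389), and lower than in eWAT, with -0.53 ± 0.14 (adjusted p = 0.0270). Both calls were lost without the 4 libraries, at 0.26 ± 0.13 (adjusted p = 0.130) and -0.38 ± 0.14 (adjusted p = 0.101). The first was also lost without ko replicate 1, 2 or 3, and the second without wt replicate 2 or ko replicate 1, 2 or 3. In all they were lost in 7 and 8 of 15 alternatives, with the highest adjusted p-values, 0.237 and 0.445, in the wt libraries alone.

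Fabp4 encodes the binding protein of adipocytes and is among the most abundant messages of fat. Fabp4 (ENSMUSG00000062515.3, chromosome 3 from 10204088 to 10208576, minus strand) held 10840, 11164 and 12786 CPM in the lowest, median and highest iBAT library, 5692, 11589 and 13174 CPM in eWAT, and 4716, 11543 and 12586 CPM in iWAT. The medians lay within 1 SD of each other, and the low white values were those of the same 3 libraries. The difference between iBAT and iWAT was 0.23 ± 0.28 (edgeR adjusted p = 0.503) and that between iBAT and eWAT was 0.16 ± 0.28 (adjusted p = 0.651). Leaving out the 4 libraries gave -0.12 ± 0.14 and 0.02 ± 0.12 (adjusted p = 0.532 and 0.880).

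Fabp5, the epidermal binding protein that macrophages also express, was highest in iWAT. Fabp5 (ENSMUSG00000027533.10, chromosome 3 from 10012548 to 10016607, plus strand) held 114.7, 145.9 and 155.9 CPM in the lowest, median and highest iBAT library, 85.1, 117.1 and 145.1 CPM in eWAT, and 106.5, 208.6 and 277.5 CPM in iWAT. In iWAT, 2 libraries lay within the range of the other tissues, wt replicate 3 at 106.5 CPM and ko replicate 2 at 145.4 CPM, and these 2 had the highest sums of 6 macrophage markers of all libraries, 1456 and 1400 CPM, whose part was not tested. Fabp5 was higher in iWAT than in iBAT, with a log2 fold change of -0.51 ± 0.20 for iBAT against iWAT (edgeR adjusted p = 0.0415), and higher than in eWAT by 0.78 ± 0.20 (adjusted p = 0.0216). Without the 4 libraries the differences were -0.82 ± 0.16 (adjusted p = 6.88e-04) and 1.02 ± 0.16 (adjusted p = 0.00120), and iWAT no longer overlapped either tissue. The first call was lost when the mouse was added to the model (-0.50, adjusted p = 0.0690) and without wt replicate 1 or 2 or ko replicate 1 or 3, and the second also without each of these 4 mice. In all, the first was lost in 8 and the second in 7 of 15 alternatives, with the highest adjusted p of the second, 0.278, in the wt libraries alone.

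Fabp4 and Fabp5 lie on chromosome 3 in a cluster with Pmp2, Fabp9 and Fabp12 that spans 288636 bp, from 10012548 to 10301183. Gm15551 is on the same chromosome, 116366146 bp away. Their near copies Fabp3-ps1 and Fabp5l2 were given at most 0.157 CPM together in any library by the same estimation, and how reads were divided between Fabp3, Fabp5 and these copies was not tested.

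Shares within a gene family, per kilobase of the principal transcript, describe the mix of family members in each library. Of the 3 binding proteins, Fabp3 made up 1.16% in the lowest, 2.62% in the median and 5.84% in the highest iBAT library, and at most 0.0302% in any white library. Over the union of exons, the length set out first, these iBAT values were 5.52%, 11.8% and 23.6%. Fabp4 made up 97.9% to 99.1% in the white tissues and 93.0% to 97.8% in iBAT. Of the 3 transport proteins, Slc27a2 made up 28.7% to 35.1% in iBAT (38.4% to 44.8% over the union of exons), where Slc27a1 made up 59.2% to 67.6%. In the white tissues Slc27a2 made up at most 1.67%, and Slc27a1 95.4% to 97.8% in iWAT and 88.3% to 96.7% in eWAT. Slc27a4 reached 10.8% in eWAT ko replicate 3 and at most 5.68% in iBAT (18.7% and 8.76% over the union of exons). That eWAT library is 1 of the 4 libraries with genes of other tissues. Without these 4, Slc27a4 reached 8.50% in eWAT, Slc27a1 made up 96.3% to 97.8% in iWAT and 91.5% to 96.7% in eWAT, and Fabp4 made up 98.0% to 99.1% in the white tissues.

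A ratio of 2 counts in the same library does not depend on how libraries are scaled. Ratios were compared between the tissues of a mouse with an exact sign-flip test over the 6 mice, two-sided and adjusted over 27 tests, in which p = 0.03125 is the smallest value and an adjusted p of 0.0469 the smallest reached. Relative to Lpl, Angptl4 fell in order from iBAT to iWAT to eWAT in each of the 6 mice. The log2 ratio of Angptl4 to Lpl was higher in iBAT than in iWAT by 0.72 ± 0.46 (SD, n = 6, exact adjusted p = 0.0469), higher in iBAT than in eWAT by 1.10 ± 0.42 and higher in iWAT than in eWAT by 0.38 ± 0.26, with the same p each time. Its range among mice within iBAT alone, -4.71 to -2.96, was wider than these differences.

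Other ratios moved in all 6 mice as well, each with an exact adjusted p of 0.0469. That value is the same for every ratio that passed and says only that the 6 mice share a sign. Its size also depends on how many of the tests reached the smallest p. Gpihbp1 relative to Lpl was higher in iBAT than in iWAT by 0.60 ± 0.18 and lower in iWAT than in eWAT by -0.31 ± 0.15, and Cd36 relative to Lpl was higher in iBAT than in iWAT by 0.40 ± 0.16 and than in eWAT by 0.36 ± 0.29. In relation to Lpl, iBAT held more message of the inhibitor and of the receptor than either white tissue. These ratios share Lpl as denominator, whose mean was 4609 CPM in iBAT, 6254 in iWAT and 7698 in eWAT. In the same order, Angptl4 means were 372.6, 304.8 and 277.6 CPM and Cd36 means 2211, 2312 and 2832 CPM. By CPM neither gene passed the test in a tissue comparison with all libraries. Lpl relative to the mean of the common adipocyte markers was lower in iBAT than in iWAT by -0.40 ± 0.18 and than in eWAT by -0.51 ± 0.27. This ratio was 2.41 to 2.60 in all 6 iWAT libraries, the libraries with lymph node genes included, against 1.88 to 2.19 in iBAT. The 7 markers are not a fixed reference. Between iBAT and iWAT 4 of them differed, 2 higher and 2 lower in iBAT, beside 54.3% of all genes. Between iBAT and eWAT 5 differed, 2 higher and 3 lower, beside 54.6%. Gpihbp1 relative to the mean of the endothelial markers was lower in iBAT than in eWAT by -0.40 ± 0.20.

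Fabp5 relative to Fabp4 was lower in iBAT than in iWAT by -0.78 ± 0.25 and higher in iWAT than in eWAT by 0.86 ± 0.35, in 6 of 6 mice each (SD, exact adjusted p = 0.0469). Slc27a4 relative to Slc27a1 was higher in iBAT than in iWAT by 1.32 ± 0.43 and lower in iWAT than in eWAT by -1.07 ± 0.82. Both mixes set iWAT apart from the other tissues in every mouse. Fabp3 relative to Fabp4 was higher in iBAT by 8.03 ± 1.37 against iWAT and 9.45 ± 1.25 against eWAT, and Slc27a2 relative to Slc27a1 by 9.25 ± 2.01 and 10.24 ± 4.18. Most eWAT libraries held only 0 to 3 counts of Slc27a2, so the 0.5 added to counts weighs on the size of the last value. Leaving out the mice with 1 of the 4 libraries in a compared tissue kept 3 mice for iBAT against iWAT, 5 for iBAT against eWAT and 2 for iWAT against eWAT, for which the exact sign-flip test cannot go below p = 0.25, 0.0625 and 0.5. The 8, 6 and 4 ratios that had passed in these comparisons kept their sign in every remaining mouse and stood at that smallest p. Of these 18, those that moved by more than 1.5 times were Angptl4 to Lpl, at 0.25, and Gpihbp1 to Lpl, at -0.47, both between the white tissues.

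**Figure D4:**
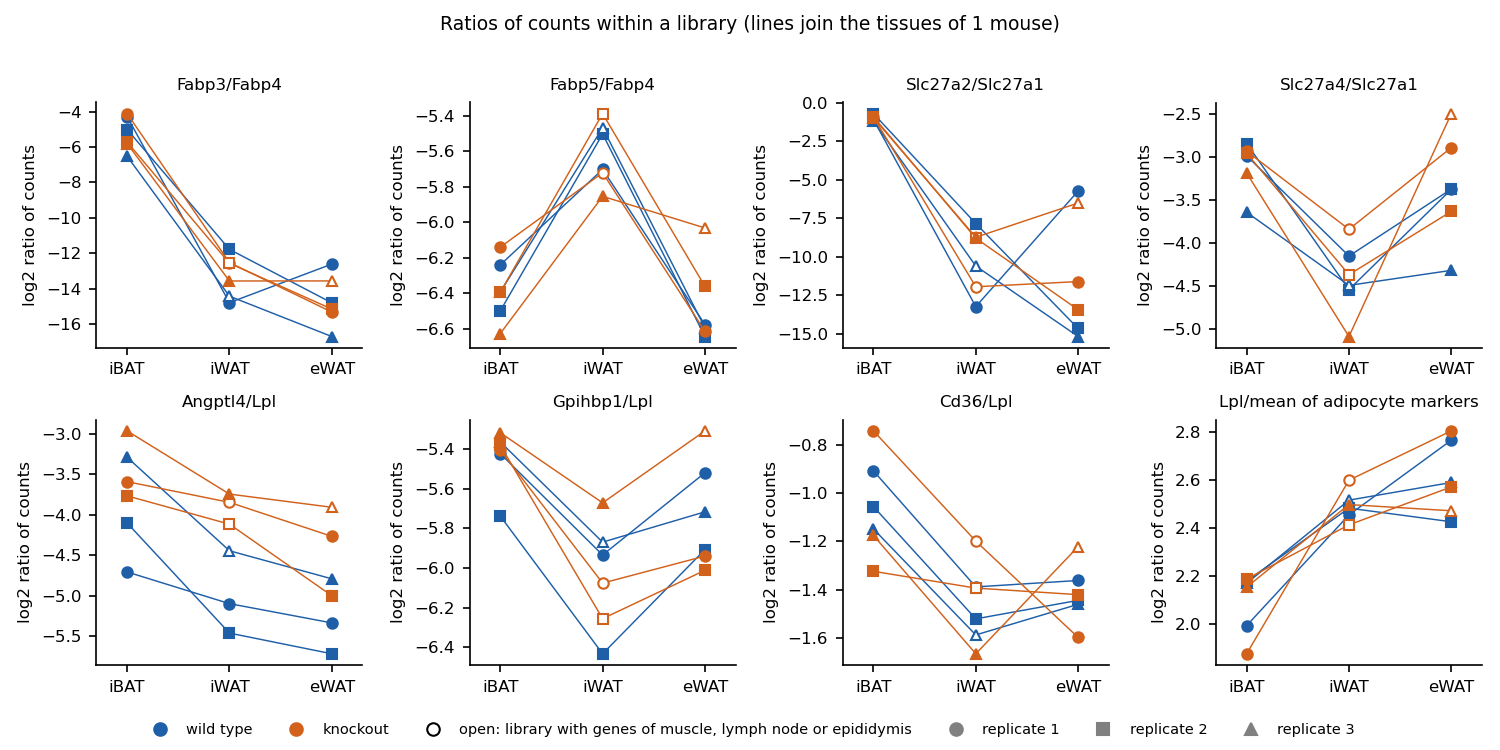
Log2 ratios of counts on the y axis in iBAT, iWAT and eWAT for each mouse, wild type in blue and knockout in orange, with a line joining the 3 tissues of a mouse and open symbols for the 4 libraries with genes of other tissues. All 6 lines fall from iBAT to iWAT for Fabp3 to Fabp4, Slc27a2 to Slc27a1, Slc27a4 to Slc27a1, Angptl4 to Lpl, Gpihbp1 to Lpl and Cd36 to Lpl, and all 6 rise for Fabp5 to Fabp4.

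The knockout was compared with wild type to ask whether these genes respond to the loss of Gm15551. None of the 10 passed an edgeR adjusted p of 0.05, across tissues, in iBAT, in iWAT, in eWAT or in the interaction of genotype with tissue. Among all genes, 0.00534% passed across tissues and 0.00534% in eWAT, and 0% in iBAT, in iWAT and in the interaction. At an unadjusted p under 0.05 there was 1 of 10 across tissues, where 411 of 18728 genes stood, 1 in iWAT (415 of all genes) and 0 in iBAT (238), in eWAT (814) and in the interaction (264), and that gene was Angptl4 in both cases. DESeq2 and limma voom also called 0 of the 10. The median log2 fold change of the 10 genes across tissues was -0.04, with 0.00 over all genes.

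Angptl4 was higher in the knockout than in the wild type of the same number in 8 of 9 library pairs. These pairs come from 3 mice per genotype, so they are not 9 independent comparisons. The labels do not say what mice of 1 number share beyond close animal identifiers. In iBAT, the wt libraries held 162.6, 280.3 and 494.9 CPM and the ko libraries 341.2, 375.7 and 580.7 CPM. In iWAT, they held 235.4, 180.1 and 131.2 CPM in wt and 525.8, 244.1 and 512.4 CPM in ko. In eWAT, they held 163.6, 163.0 and 313.8 CPM in wt and 508.5, 280.4 and 236.0 CPM in ko. The genotypes overlapped in iBAT and eWAT and did not in iWAT. Angptl4 was the 1 of 10 genes whose groups did not overlap in iWAT, where 4.92% of all tested genes had this, and 0 of 10 had it in iBAT (4.94% of all genes) and in eWAT (5.25%).

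The log2 fold change of Angptl4 was 0.79 ± 0.25 across tissues (edgeR adjusted p = 0.9999), 0.47 ± 0.44 in iBAT, 1.23 ± 0.44 in iWAT and 0.68 ± 0.44 in eWAT (adjusted p = 1 in each). A difference between these effects was not detected (interaction, edgeR adjusted p = 1). The difference in Angptl4 thus failed the correction over all genes. As geometric means over the 3 tissues of a mouse, the knockout mice held 450.2, 295.2 and 412.6 CPM and the wild type mice 184.3, 201.9 and 273.2 CPM, without overlap, and the exact two-sided permutation test gave p = 0.10, the smallest that 3 against 3 allows. As plain means the mice overlapped, with 300.1 CPM in ko replicate 2 and 313.3 CPM in wt replicate 3, and the same exact permutation test gave p = 0.20. The 2 libraries with lymph node genes stood on both sides, at 131.2 CPM in wt and 244.1 CPM in ko, and iWAT ko replicate 1, with muscle genes, held 525.8 CPM. Without the 4 libraries 1 ko and 2 wt libraries remained in iWAT, and Angptl4 held 512.4 CPM in that ko library against 235.4 and 180.1 CPM. A lone library is taken in such a fit to vary like the other groups.

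None of the remaining 9 genes passed the test. Their log2 fold changes across tissues ran from -0.33 ± 0.79 for Slc27a2 to 0.17 ± 0.12 for Slc27a4. Slc27a2 in iBAT, where it is expressed, was 219.7 ± 23.2 CPM in wt and 221.5 ± 3.71 CPM in ko (SD, n = 3), and Fabp3 was 343.2 ± 211.8 and 360.0 ± 238.5 CPM. Lpl was 4633 ± 334.2 CPM in wt iBAT and 4586 ± 503.0 in ko iBAT. The SEs of these 9 genes within a tissue ran from 0.21 to 1.55, so that small changes could not be detected.

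**Figure D5:**
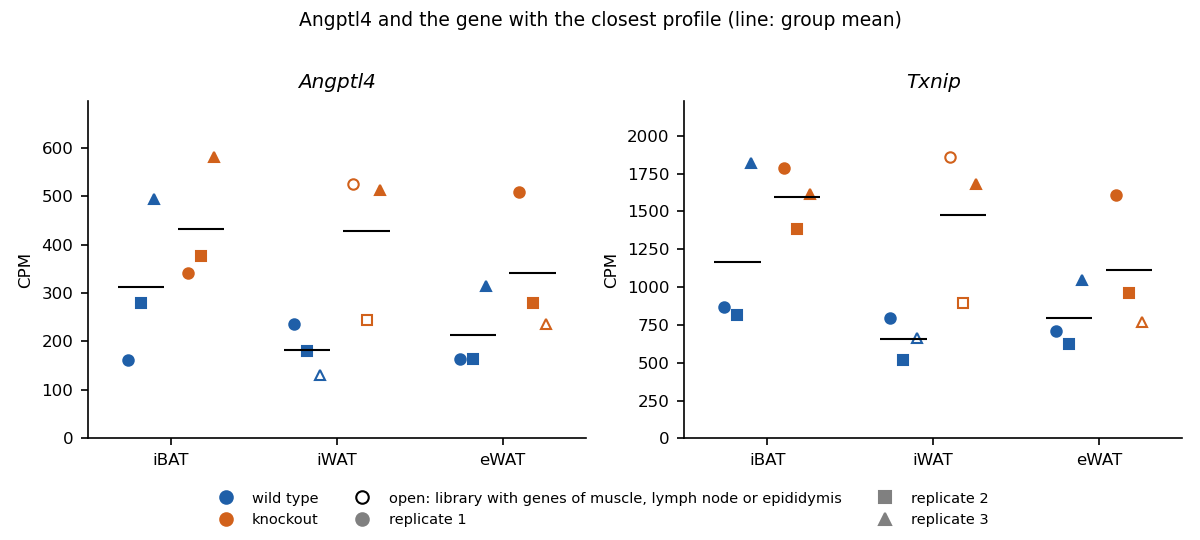
CPM of Angptl4 and Txnip in the 3 tissues on the x axis, wild type in blue and knockout in orange, replicate numbers as symbols and group means as lines, with open symbols for the 4 libraries with genes of other tissues. The knockout mean lies above the wild type mean in all 3 tissues for both genes, and in iWAT the groups do not overlap.

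For each of the 10 genes, the 2 genes of the whole table with the most similar profile were looked up, by the root mean square (rms) difference of log2 CPM centred on the mean over 18 libraries. These values are descriptive, and libraries of the same tissue and mouse are not independent. Fabp3 was the closest gene to Slc27a2 (rms 1.59, with a standard deviation of 4.56 for Slc27a2 itself), and Cox7a1 (rms 0.97) and Elovl3 (rms 1.03) were the closest to Fabp3. With a prior count of 0.5 in place of 2, Acot11 (rms 1.11) took the place of Elovl3. Cox7a1 encodes a subunit of cytochrome c oxidase in heart, muscle and brown fat, and Elovl3 an enzyme that lengthens fatty acids in brown fat. Lpl was closest to Selenbp1 (rms 0.14) and Fgfrl1 (rms 0.16), Gpihbp1 to Kank3 (rms 0.15) and to Aqp1 (rms 0.18), a water channel of capillary endothelium, Cd36 to Dolk and Syap1 and Fabp4 to Unc45b and Tmem205. Slc27a1 was closest to Usp49 and Tst, Slc27a4 to Zwint and Blzf1, and Fabp5 to Akr1b3 and 1600014C10Rik.

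Angptl4 stood closest to Txnip (rms 0.28) and then to Garre1 (rms 0.44), with a standard deviation of 0.68 for Angptl4 itself. Txnip encodes a thioredoxin-binding protein that restrains glucose uptake. It held 813 to 1819 CPM in iBAT, with a log2 fold change between genotypes of 0.70 ± 0.22 across tissues (edgeR adjusted p = 0.9999). Like Angptl4, Txnip was mostly higher in the knockout, in 7 of 9 library pairs by number, which come from the same 3 mice per genotype. Txnip was found through its likeness to Angptl4, so its genotype difference is not separate evidence.

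Other genes of the same processes were counted from 2 lists. Of 16 genes that fold, anchor, regulate or receive the lipase and its lipoproteins, 15 were tested, and 10 differed between iBAT and iWAT, 6 higher and 4 lower in iBAT, where 54.3% of all genes differed, 24.0% higher and 30.3% lower. Lmf1, whose product folds lipases in the endoplasmic reticulum, was higher in iBAT than in iWAT by 1.35 ± 0.12 (edgeR adjusted p = 8.54e-08) and than in eWAT by 1.23 ± 0.12 (adjusted p = 1.71e-07), although Lpl was not. Vldlr, a lipoprotein receptor that binds the lipase, was higher by 1.93 ± 0.23 (adjusted p = 2.66e-06) and 2.48 ± 0.23 (adjusted p = 1.47e-07). Sdc1, a heparan sulfate proteoglycan that binds lipoproteins, was lower by -2.37 ± 0.24 (adjusted p = 4.46e-07) and -2.49 ± 0.24 (adjusted p = 2.10e-07). The median of the list was -0.15 for iBAT against iWAT, with -0.14 over all genes. Against eWAT 13 of 15 differed, 6 higher and 7 lower in iBAT, beside 54.6% of all genes (24.4% and 30.2%), with a median of -0.26 and -0.17 over all genes.

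Of 21 further genes of fatty acid transport and binding, 16 were tested. Between iBAT and iWAT 11 differed, beside 54.3% of all genes, 6 higher and 5 lower in iBAT, with a median of 0.37 and -0.14 over all genes. This count was 7 without wt replicate 1, wt replicate 2 or ko replicate 2, and 3 of 13 in the wt libraries alone. Between iBAT and eWAT 8 differed, beside 54.6% of all genes, 4 in each direction, with a median of 0.13 and -0.17 over all genes, and 5 of 13 did in the wt libraries alone. Between iWAT and eWAT 2 of 15 and 3 of 16 genes of the 2 lists passed the test, beside 10.2% of all genes. The 2 became 1 without wt replicate 2, ko replicate 2 or ko replicate 3 and 0 in the wt libraries alone. The 3 became 0 without wt replicate 2 or ko replicate 2, in the wt libraries alone and in a fit to the 2 tissues, and 1 without wt replicate 3 or ko replicate 1 and with no filter. Apoc3, which encodes an apolipoprotein that slows lipolysis, was higher in iWAT by 1.97 ± 0.51 (edgeR adjusted p = 0.0219), at 1.24 to 6.60 CPM against 0.215 to 1.94 CPM in eWAT. Cav1, which encodes the coat protein of caveolae, was lower in iWAT by -0.96 ± 0.27 (adjusted p = 0.0310), with its lowest iWAT values, 515.0 and 855.1 CPM, in the 2 libraries with lymph node genes. With the 4 libraries left out, Apoc3 was 2.20 ± 0.59 (adjusted p = 0.0303) and Cav1 -0.88 ± 0.15 (adjusted p = 0.00206). The counts of the lipase list then were 10 between iBAT and iWAT, 14 between iBAT and eWAT and 3 between the white tissues, and those of the transport list 11, 10 and 4. List counts from such alternative fits are given without the share of all genes beside them, so nothing is read from them. Between genotypes, 0 genes of either list passed the test in any comparison.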

How the data were processed

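RNA of 18 libraries was sequenced, and the authors deposited whole-number estimated counts per gene, made with bcl2fastq, cutadapt and Salmon on GENCODE M22 transcripts (GRCm38), alone or combined with RNAcentral. Tool versions, strandedness and how transcripts were summed to genes were not given in the sources used here. Symbols that 22461 of 54347 gene rows lacked were filled for 22260 of them from GENCODE M21, the release at hand, which also gave positions and lengths.

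Groups were taken from the sample labels. Genes were filtered by group with filterByExpr (18728 kept), scaled by TMM and tested with edgeR 4.0.16 quasi-likelihood F-tests in R 4.3.3, with tissue and genotype as terms for tissue and across-tissue comparisons and with 6 groups for genotype within tissues. Benjamini-Hochberg adjustment ran over all genes, with a threshold of 0.05. DESeq2 1.42.0 and limma 3.58.1 (voom) were alternatives. The tests were tested on simulated data. The SE is the log2 fold change divided by the root of F. Ratios used counts plus 0.5. The main fits hold no mouse term, so their p-values for tissue and across-tissue comparisons measure the spread between libraries, of which each mouse gave 3. Labels name the mouse, so the 3 tissues are paired by mouse, and correlations of the deviations from group means were -0.126 to 0.335 between tissues of a mouse.

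All members, the 3 other pathway genes with the smallest p in each tissue comparison and the 2 most similar profiles per member were named. One item that this rule names is not reported here. The members and lists were chosen with earlier results of these data known. The principal-transcript length, the fit without eWAT wt replicate 1 and ko replicate 3, the plain means by mouse, the ratios of means without single white libraries and the family shares and ratio pairs without the 4 libraries with genes of other tissues were added after the data were seen.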

Additional observations from a re-analysis of the deposited data

Results flagged for a closer look

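Among 57 sets of 6 values compared by Dixon's test, 4 had a library far from the other 5, where chance gives about 1 in 20 sets, or 2.85. Slc27a1 was high in iBAT wt replicate 3, at 515.7 CPM against 423.8 CPM in the next library. The log2 ratio of Gpihbp1 to Lpl was low in iBAT wt replicate 2, at -5.74 against -5.42 in the next. Gpihbp1 was low in eWAT ko replicate 3, at 89.4 CPM against 139.0 CPM, and this library held the epididymis genes. Fabp3 was high in eWAT wt replicate 1, at 1.28 CPM against 0.446 CPM. In none of the 10 genes did the genotypes separate fully in opposite directions in 2 tissues.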

How the results depend on the processing

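The higher levels of Fabp3 and Slc27a2 in iBAT kept their direction and passed the test in every alternative that gave a p-value (DESeq2 gave none for Slc27a2). None of the 10 genes was called between genotypes in any alternative. The log2 fold change of Angptl4 between genotypes ran from 0.65 to 1.02 across tissues and from 1.04 to 1.51 in iWAT, with a lowest adjusted p of 0.881 and 0.903. For Angptl4 the value ran more widely in iBAT, from 0.16 to 0.96, and in eWAT, from 0.27 to 1.06. The differences of the other 9 genes across tissues changed sign in 26 of 116 values. Of 15 alternatives, the smaller tissue differences of Fabp5 lost their calls in 8 (iBAT and iWAT) and 7 (iWAT and eWAT), those of Slc27a4 in 7 and 8, and that of Lpl (iBAT and eWAT) in 6. The causes of the changes below were not tested. Where a count of members below stands without the share of all genes in the same fit, nothing is read from it.

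Without the 4 libraries with genes of other tissues, members called were 6 between iBAT and eWAT and 1 between the white tissues, and the genes called between genotypes were 1 in iBAT, 11 in iWAT and 2 in the interaction. The sign turned for Gpihbp1 (-0.18) and Fabp4 (-0.12) between iBAT and iWAT, and for Slc27a2 (0.60) and Fabp4 (0.14) between the white tissues. With wt libraries only, 2 members and 6595 genes were called between iBAT and iWAT, 6574 genes between iBAT and eWAT, and 0 members and 247 genes between the white tissues, where Angptl4 was -0.23. Fits to the 2 tissues alone called 3, 5 and 0 members, and 854 genes between the white tissues. With voom, Cd36 was 0.051 between iBAT and iWAT and Slc27a2 was 1.65 between the white tissues. Without eWAT wt replicate 1 and ko replicate 3, which were chosen after their Slc27a2 counts were seen, Fabp4 was -0.065 between iBAT and eWAT, and between the white tissues Angptl4 was -0.12, Slc27a2 was 4.92 and 1 member was called; as the libraries were picked on Slc27a2, that value supports nothing. Between genotypes, DESeq2 called 4 genes across tissues, 13 in iBAT, 4 in iWAT and 13 in eWAT, and dropping the filter gave 1 in iWAT. The 1 gene called in eWAT became 0 with voom, in a fit to eWAT alone and without those 2 libraries.

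Leaving out 1 mouse at a time gave 3 to 5 members between iBAT and iWAT, 0 to 3 members and 750 to 1595 genes between the white tissues, 0 to 1 gene between genotypes in iBAT and 0 in eWAT. Between iBAT and iWAT, Gpihbp1 ran from -0.011 to 0.30 and Cd36 from -0.22 to 0.036. Between the white tissues, Angptl4 ran from -0.15 to 0.34, Slc27a2 from -1.36 to 1.30 and Fabp4 from -0.28 to 0.14.

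With the mouse as a block, Slc27a2 was 0.035 between the white tissues, and Lpl (iBAT and eWAT) and Fabp5 (iBAT and iWAT) lost their calls, while no other member did. The labels do not say what a wt and a ko mouse of 1 number share beyond close animal identifiers, and the correlations of their deviations ran from -0.487 to 0.526 (above 0.1 in 4 of 9 pairs). A block by number called 0 members and gave 3 genes across tissues and 0 in eWAT.

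By level per kilobase, the longest transcript left 6 of 10 members at their place in iBAT and 6 in eWAT, and the principal transcript 3 in iBAT, 5 in iWAT and 5 in eWAT.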
